A study of Mus musculus with 2 samples.

Results

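The miR-302-367 cluster is a group of 5 miRNA hairpins, Mir302b, Mir302c, Mir302a, Mir302d and Mir367, that lie close together on mouse chromosome 3. Its reads were taken from small RNA libraries of J1 mouse embryonic stem cells (mESCs), an established line. Both cultures were kept on gelatin without feeder cells in serum replacement medium that held LIF, the cytokine used to keep mESCs undifferentiated, at 1000 U/mL. The PD culture received 1 μM PD0325901 (PD) for 24 h, a small molecule that inhibits MEK, the kinase upstream of ERK1/2, and the control culture received DMSO. RNA of 3 experiments was pooled for each treatment, so that 1 library stood for each treatment and there were no replicates. Every interval and p-value below therefore covers the sampling of reads only, except where a spread between libraries is assumed. All of them compare 2 libraries and not 2 treatments.

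Tags were assigned to the members by sequence alone. A distinct read sequence (tag) was assigned to the cluster when it matched a member hairpin of the GENCODE M21 annotation perfectly over its whole length, however rare it was. Of the 1174 named hairpins searched, 5 were members, and all 5 had at least 1 read in each library. They held 48 distinct tags, 39 in the DMSO library and 42 in the PD library, with 287 and 560 reads. The libraries held 18870345 and 20944808 clean reads, of which 2180916 and 2111203 matched a miRNA hairpin. The cluster was thus 0.0132% of the miRNA reads in the DMSO library and 0.0265% in the PD library. None of the 48 tags matched another hairpin or another annotated transcript (0 in each case), and 0 tags matched the opposite strand of a member hairpin.

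A miRNA is cut from a hairpin in its primary transcript by Drosha and then by Dicer, which leaves a duplex of a 5p and a 3p strand, of which mostly 1 strand is loaded into an Argonaute protein. Bases 2 to 8 of the loaded strand, the seed, pair with target mRNAs. The hairpins of this cluster are transcribed together. The cluster is known for its expression in pluripotent cells, most of all in those that resemble the postimplantation epiblast and in human embryonic stem cells. By contrast, mESCs express the miR-290-295 cluster at a high level. Some 3p arms of that cluster share the seed of miR-302 3p arms. miRNAs with this seed promote passage from G1 to S phase in embryonic stem cells.

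In GRCm38 the hairpins span 580 nt of the plus strand of chromosome 3, from 127545228 to 127545807. They lie between exons 8 and 9 of the transcript Larp7-201, in an intron of Larp7, which codes for a protein of the 7SK ribonucleoprotein and is read from the minus strand, so that the hairpins are antisense to their host intron. Mir302b runs from 127545228 to 127545301, Mir302c from 127545363 to 127545430 and Mir302a from 127545496 to 127545564. Mir302d follows from 127545624 to 127545689 and Mir367 from 127545733 to 127545807, and it ends 18 nt before exon 8 of Larp7. The gaps between neighbouring hairpins are 61, 65, 59 and 43 nt.

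The mature sequences show how the members divide by seed, and are given 5′ to 3′ from the RefSeq annotation of GRCm38.p6 with bases 2 to 8 in capitals. Of the 10 member arms, 9 had a RefSeq entry at hand. The other arm, miR-302a-3p, is given without its sequence, and its most frequent tag had the seed AAGUGCU. The 3p arms of Mir302b and Mir302d share the seed AAGUGCU:
miR-302b-3p: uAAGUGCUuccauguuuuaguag
miR-302d-3p: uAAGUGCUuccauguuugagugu
The 3p arm of Mir302c starts 1 base further in, so that its seed is AGUGCUU:
miR-302c-3p: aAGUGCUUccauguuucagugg
The 5p arms of Mir302b, Mir302c and Mir302d share CUUUAAC, and that of Mir302a has CUUAAAC:
miR-302b-5p: aCUUUAACaugggaaugcuuucu
miR-302c-5p: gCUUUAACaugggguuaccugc
miR-302d-5p: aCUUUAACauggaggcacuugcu
miR-302a-5p: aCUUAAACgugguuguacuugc
The arms of Mir367 have other seeds, and that of miR-367-3p is the seed of the miR-25 and miR-92 family:
miR-367-5p: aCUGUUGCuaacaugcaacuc
miR-367-3p: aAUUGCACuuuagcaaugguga
The Mir302d hairpin shows how the arms lie in a precursor, with the mature 5p and 3p sequences in capitals:
Mir302d hairpin: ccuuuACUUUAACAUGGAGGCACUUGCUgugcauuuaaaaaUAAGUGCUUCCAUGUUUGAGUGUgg

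Levels are given as RPM, the reads out of every 1000000 clean reads, with exact Poisson 95% intervals. Adapters were ligated and the products amplified by PCR, and how evenly this captured different sequences was not measured. Ranks, ratios between miRNAs and arm shares are therefore those of reads and may not be those of molecules. For a count of 0 this interval ends at 0.195 RPM in the DMSO library and 0.176 RPM in the PD library. The 5p arm of Mir302a was the most abundant member in both libraries. miR-302a-5p had 171 reads in the DMSO library, 9.06 RPM with an interval of 7.75 to 10.5, and 334 reads in the PD library, 15.9 RPM with an interval of 14.3 to 17.8. It ranked 259th among the 1140 mature miRNAs with reads in the DMSO library and 206th in the PD library, and held 59.6% of the cluster's reads in each. The next member, miR-302d-3p, had 46 reads (2.44 RPM) and 119 reads (5.68 RPM), at ranks 380 and 296.

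The other members lay lower. miR-302b-3p had 27 reads in the DMSO library and 37 in the PD library, 1.43 and 1.77 RPM. miR-302a-3p had 26 and 36 reads, 1.38 and 1.72 RPM. miR-302d-5p had 9 and 23 reads, 0.477 and 1.10 RPM, and so reached the detection limit of 1 RPM through the PD library alone.

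The remaining 5 arms were below the detection limit in both libraries. miR-302b-5p had 4 reads in the DMSO library and 1 in the PD library. miR-302c-3p had 3 and 4 reads. miR-367-3p had 1 and 5 reads. For miR-367-5p the counts were 0 and 1, and miR-302c-5p was the single arm with 0 perfectly matching reads in both. Mir302c and Mir367 were thus represented by 7 reads each over both libraries, against 567 reads of Mir302a in the same libraries.

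In the order of the levels, several neighbours did not differ beyond counting error. miR-302a-5p exceeded miR-302d-3p by 3.72 times in the DMSO library (exact 95% interval 2.67 to 5.27) and by 2.81 times in the PD library (2.27 to 3.49). miR-302d-3p exceeded miR-302b-3p by 1.70 times (1.04 to 2.85) and by 3.22 times (2.21 to 4.79). For miR-302b-3p over miR-302a-3p the ratios were 1.04 (0.583 to 1.85) and 1.03 (0.632 to 1.67), so that the order of this pair was not detectable at this depth. miR-302a-3p exceeded miR-302d-5p by 2.89 times in the DMSO library (1.31 to 7.01), and in the PD library the ratio was 1.57 with an interval that included 1 (0.903 to 2.77). Among the rarer arms no neighbours differed beyond counting error in either library, except that miR-302d-5p lay above miR-367-3p in the PD library, by 4.60 times (1.71 to 15.5).

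**Figure D1:**
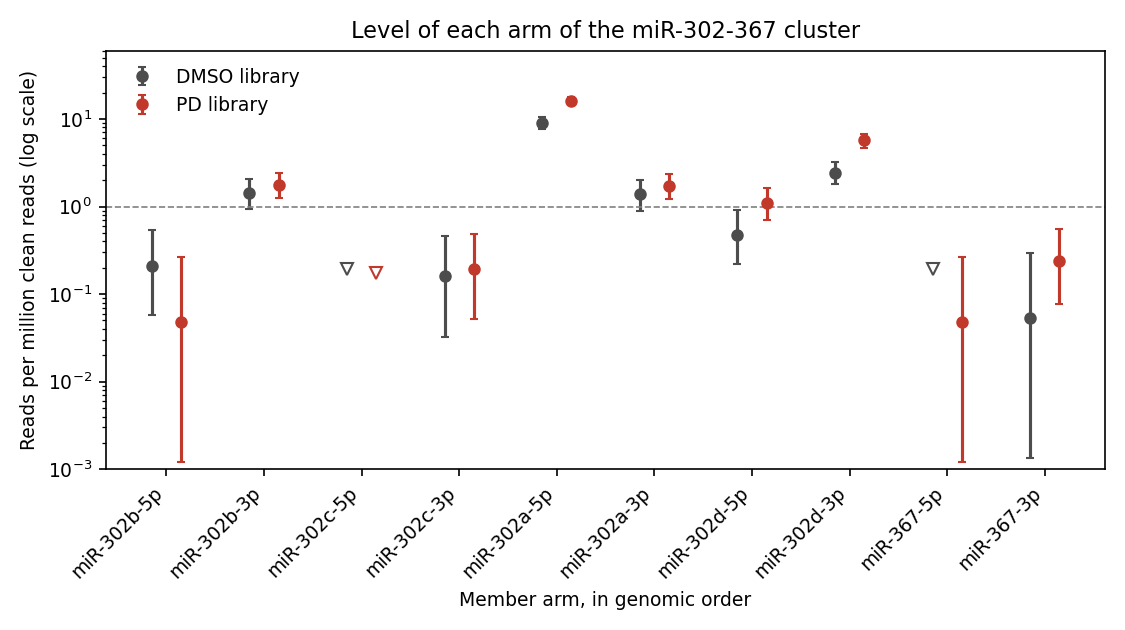
Level of each member arm in genomic order, in RPM on a log scale, in the DMSO library (grey) and the PD library (red), with exact Poisson 95% intervals. Open triangles stand at the upper bound where 0 reads were counted, and the dashed line marks 1 RPM. miR-302a-5p stands highest in both libraries, at 9.06 and 15.9 RPM.

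The comparison of the libraries asks how the cluster's miRNAs stood after MEK was inhibited. Over both arms of all 5 hairpins, 287 reads in the DMSO library (15.2 RPM, interval 13.5 to 17.1) stood against 560 in the PD library (26.7 RPM, interval 24.6 to 29.0). The summed level was 1.76-fold higher in the PD library, with a counting interval of 1.52 to 2.03. The 5p arms together were 1.76-fold higher (1.47 to 2.11), and the 3p arms together were 1.76-fold higher as well (1.38 to 2.25). Without miR-302a-5p, the rest of the cluster had 116 and 226 reads, 1.76-fold more (1.40 to 2.22). Of these reads, 55 and 142 came from Mir302d, so that the equal folds of these sums do not mean an equal rise of every member.

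By hairpin, Mir302d went from 55 to 142 reads, 2.33-fold higher (1.69 to 3.24), and Mir302a from 197 to 370 reads, 1.69-fold higher (1.42 to 2.02). Mir302b, the hairpin nearest the 5′ end of the cluster, had 31 and 38 reads, and its fold of 1.10 had an interval that included 1 (0.669 to 1.84). Mir302d held 19.2% of the cluster's reads in the DMSO library (Wilson 95% interval 15.0 to 24.1) and 25.4% in the PD library (21.9 to 29.1). For Mir302b these shares were 10.8% (7.71 to 14.9) and 6.79% (4.98 to 9.18). The Wilson intervals of the 2 libraries overlap for both hairpins, and the difference between hairpins was not tested.

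Of the 5 detected members, 3 were at least 1.5-fold higher in the PD library, and 0 were 1.5-fold lower. Of these 3, miR-302d-5p passed the filter only through the PD library, so that the filter itself favoured a higher level there. Among all 498 detected miRNAs, 30 were at least 1.5-fold higher (6.02%) and 69 at least 1.5-fold lower. With at least 1 RPM required in the DMSO library, a choice made after seeing the data, 2 of 4 members and 18 of 480 miRNAs were at least 1.5-fold higher. Where the exact binomial test also had to give an adjusted p under 0.05, 2 of the 5 members, miR-302a-5p and miR-302d-3p, were called higher, against 18 of the 498 (3.61%), while 56 of the 498 were called lower. miR-302d-3p was 2.33-fold higher (1.65 to 3.35, adjusted p = 1.92e-06), and 4 of the 498 detected miRNAs, this one included, had a log2 fold change as large. miR-302a-5p was 1.76-fold higher (1.46 to 2.13, adjusted p = 4.35e-09), and 16 had a log2 fold change as large. miR-302d-5p was 2.30-fold higher with an interval of 1.03 to 5.65, and its adjusted p of 0.0696 in the exact binomial test did not pass. For miR-302b-3p the fold was 1.23 (0.732 to 2.11), and for miR-302a-3p it was 1.25 (0.733 to 2.15), with adjusted p of 0.594 and 0.589 in the same exact test.

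With spread assumed between libraries, these calls depended on its size. With a biological coefficient of variation (BCV) of 0.1, the exact test of edgeR gave an adjusted p of 0.00666 for miR-302d-3p and of 0.0210 for miR-302a-5p. With a BCV of 0.2, the adjusted p of the same exact test were 0.616 and 1, so that 0 members were called. No measured spread was at hand to choose between these values.

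For arms with few reads the ratio was bounded loosely. miR-367-3p, with 1 and 5 reads, had a ratio of 4.50 and a counting interval of 0.504 to 213. The ratio of miR-302c-3p, with 3 and 4 reads, was 1.20 (0.203 to 8.20), and that of miR-302b-5p, with 4 and 1 reads, was 0.225 (0.00457 to 2.28). All 3 intervals included 1. No ratio was formed for miR-302c-5p and miR-367-5p, which were at or under 3 reads in both libraries.

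The median log2 fold change of all 498 detected miRNAs was -0.17 on the scale of clean reads, and 67.5% of them lay below the DMSO library. Relative to this median, the log2 fold change was 1.39 for miR-302d-3p, 1.37 for miR-302d-5p and 0.99 for miR-302a-5p, 0.49 for miR-302a-3p and 0.48 for miR-302b-3p. The denominator moved the split of calls over all miRNAs from 18 higher and 56 lower to 32 and 19 with miRNA reads, to 40 and 16 with clean reads of 20 to 24 nt, to 23 and 36 with TMM normalization and to 24 and 21 with DESeq2 size factors. Reads of 20 to 24 nt were 63.0% of the DMSO library and 52.0% of the PD library. The 4 members with at least 1 RPM in the DMSO library lay above the DMSO library under each of these denominators. So did from 32.5% (clean reads) to 61.6% (reads of 20 to 24 nt) of all 498 detected miRNAs. These passed the filter in either library, so that their share and that of the 4 members rest on unlike filters. miR-302d-5p is left out of the 4 members. It passed the filter only by its level in the PD library, so that its direction was set by its selection. Its adjusted p in the exact binomial test was 0.0329 with miRNA reads and 0.0200 with reads of 20 to 24 nt. For the same reason, these values cannot show a rise.

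**Figure D2:**
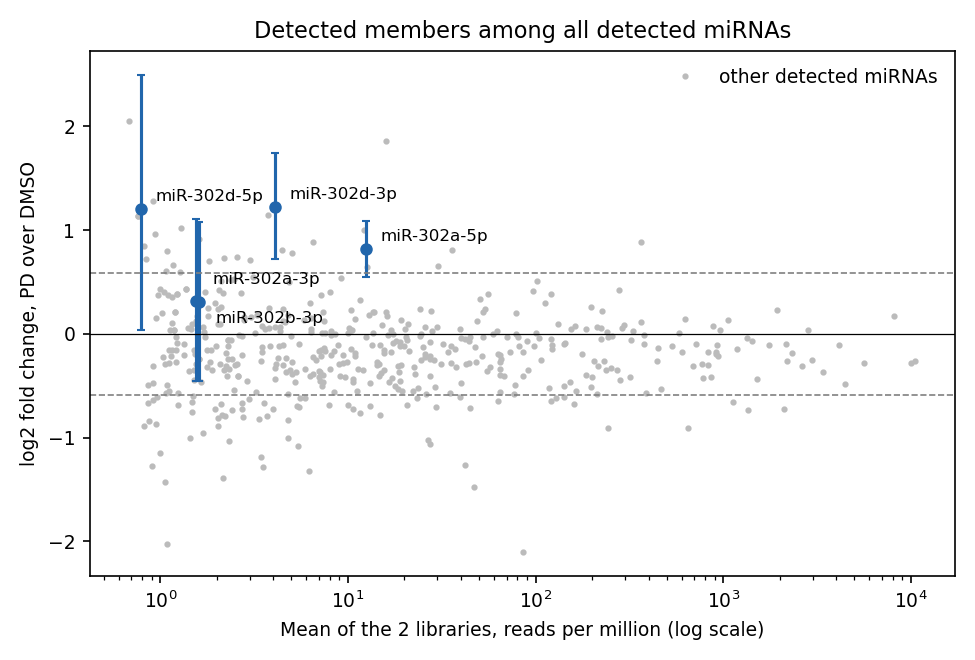
The log2 fold change of the PD over the DMSO library against the mean level in RPM (log scale) for the 498 detected miRNAs, with the 5 detected members in blue and their exact 95% counting intervals. Dashed lines mark 1.5-fold, and miR-302d-3p, miR-302d-5p and miR-302a-5p lie above the upper line while miR-302a-3p and miR-302b-3p lie below it with intervals that include 0.

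The labelled cell type was checked on marker miRNAs. The miR-290-295 hairpins that mark mESCs held 33056 RPM in the DMSO library and 28349 RPM in the PD library. Summed marker levels in the DMSO and the PD library were 161 and 167 RPM for muscle, 208 and 179 RPM for fibroblasts and smooth muscle, 16.1 and 14.9 RPM for blood and 2.91 and 2.01 RPM for liver, and Mir223, a marker of myeloid cells, had 0 reads in both. Most of the muscle sum was miR-1a-3p (157 and 166 RPM), while miR-206-3p was lower (3.13 and 1.19 RPM, adjusted p = 0.000101, exact binomial test). In the fibroblast and smooth muscle list, 1 of 4 detected miRNAs passed this test, and it was lower. The neural list (miR-124a and miR-9) rose from 278 to 493 RPM in sum, with none of its 4 mature miRNAs at 0. Of these 4, all detected, miR-124a-3p (255 and 472 RPM, adjusted p = 4.01e-282) and miR-124a-5p (2.28 and 3.72 RPM, adjusted p = 0.0267) were called higher in the exact binomial test, and miR-9-5p was lower (17.4 and 13.7 RPM, adjusted p = 0.0102). The part of neural cells in the cluster's difference was not tested. In bulk RNA, fewer cells of a type and less RNA per cell cannot be told apart.

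The 3 detected miRNAs outside the cluster with at least 10 RPM in either library whose log2 fold change lay nearest to that of the summed cluster (0.81) were miR-467a-5p (0.81), miR-124a-3p (0.89) and miR-365-2-5p (0.65). They were found among 257 candidates and over 2 libraries only. miR-467a-5p, from the Sfmbt2 intronic cluster, went from 26.2 to 45.9 RPM.

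The share of reads from each of the 2 arms differed between the hairpins. Mir302a reads came mostly from the 5p arm, 171 of 197 in the DMSO library (86.8%, Wilson 95% interval 81.4 to 90.8) and 334 of 370 in the PD library (90.3%, 86.8 to 92.9). Mir302d reads came mostly from the 3p arm, with 9 of 55 on the 5p arm (16.4%, 8.86 to 28.3) and 23 of 142 (16.2%, 11.0 to 23.1). Mir302b had 4 of 31 reads on the 5p arm (12.9%, 5.13 to 28.9) and 1 of 38 (2.63%, 0.466 to 13.5). All 7 reads of Mir302c came from the 3p arm, as did 6 of the 7 of Mir367. The intervals of Mir302a did not overlap those of Mir302b and Mir302d in either library. Over the 227 hairpins with at least 10 reads on each arm in both libraries together, the median 5p share was 42.1% in the DMSO library, with quartiles of 12.7% and 87.2%.

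A difference in arm use between the libraries was not detectable in the 2 member hairpins with enough reads. Fisher's exact test gave p = 0.207 (adjusted p = 0.460) for Mir302a and p = 1 (adjusted p = 1) for Mir302d, so that 0 of 2 passed, against 43 of the 227 hairpins tested (18.9%).

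**Figure D3:**
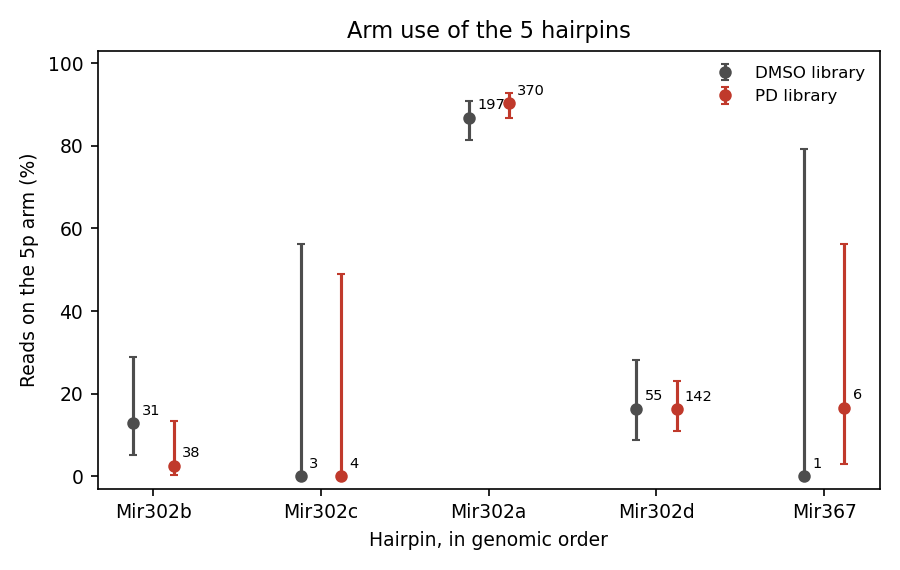
Share of each hairpin's reads that came from its 5p arm, in percent, in the DMSO library (grey) and the PD library (red), with Wilson 95% intervals and the hairpin's read count beside each point. Mir302a stands at 86.8% and 90.3%, and Mir302d at 16.4% and 16.2%.

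The start of a tag sets its seed. Most member reads began at the first base of the mature miRNA, here the most frequent tag of the arm. For miR-302a-5p this tag was 23 nt, 1 nt longer at its 3′ end than the RefSeq sequence, and in the DMSO and PD libraries it had 87 and 187 reads. It is shown with the tag that was most frequent among those starting 3 nt further in, whose seed is AAACGTG, both as DNA letters from the tag files:
miR-302a-5p, first base: aCTTAAACgtggttgtacttgct
miR-302a-5p, 3 nt in: tAAACGTGgttgtacttgcttt
The second tag had 16 and 29 reads. All tags with that start held 23 of 171 reads of the arm in the DMSO library (13.5%, Wilson 95% interval 9.13 to 19.4) and 39 of 334 in the PD library (11.7%, 8.66 to 15.6). Starts 1 nt in were not seen on this arm, and those 2 nt in had 0 and 2 reads. This start was picked out after its counts were seen.

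On the 3p arms the commonest shifted start lay 1 nt in, and gave miR-302a-3p, miR-302b-3p and miR-302d-3p tags the seed of miR-302c-3p. The pair below shows the shift in miR-302d-3p, with the shifted seed AGTGCTT:
miR-302d-3p, first base: tAAGTGCTtccatgtttgagtgt
miR-302d-3p, 1 nt in: aAGTGCTTccatgtttgagtgt
The first tag had 29 reads in the DMSO library and 88 in the PD library, and the second had 5 and 9. Starts 1 nt in were 8 of 27 reads of miR-302b-3p in the DMSO library (29.6%, 15.9 to 48.5) and 7 of 37 in the PD library (18.9%, 9.48 to 34.2). They were 4 of 26 (15.4%, 6.15 to 33.5) and 8 of 36 (22.2%, 11.7 to 38.1) for miR-302a-3p. For miR-302d-3p they were 5 of 46 (10.9%, 4.73 to 23.0) and 9 of 119 (7.56%, 4.03 to 13.8), and 4 further reads in each library started 2 nt in. Counted by each tag's own bases, 20 and 28 member reads carried AGTGCTT, of which 3 and 4 came from miR-302c-3p. Over all miRNAs 1367 and 1240 reads carried these bases, so that the members held 1.46% and 2.26% of them. On the 5p arm of Mir302d, 1 of 9 and 5 of 23 reads began 1 nt before the mature miRNA.

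No difference between the libraries in the start or the length of member reads was detectable at this depth. In Fisher's exact test of reads at the first base against other starts, 0 of the 5 members tested passed, with adjusted p of 1 each and unadjusted p from 0.200 for miR-302d-3p to 0.746 for miR-302a-3p, against 17 of 668 miRNAs (2.54%). For reads of 21 nt or more against shorter reads, 0 of 5 passed, against 111 of 668 (16.6%). The smallest member p in that exact test was that of miR-302a-5p, 0.196 (adjusted p = 0.611), with 96.5% long reads in the DMSO library and 98.5% in the PD library. At an unadjusted p under 0.05, 0 members passed either test, against 49 (7.34%) and 153 (22.9%) of the 668 miRNAs.

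**Figure D4:**
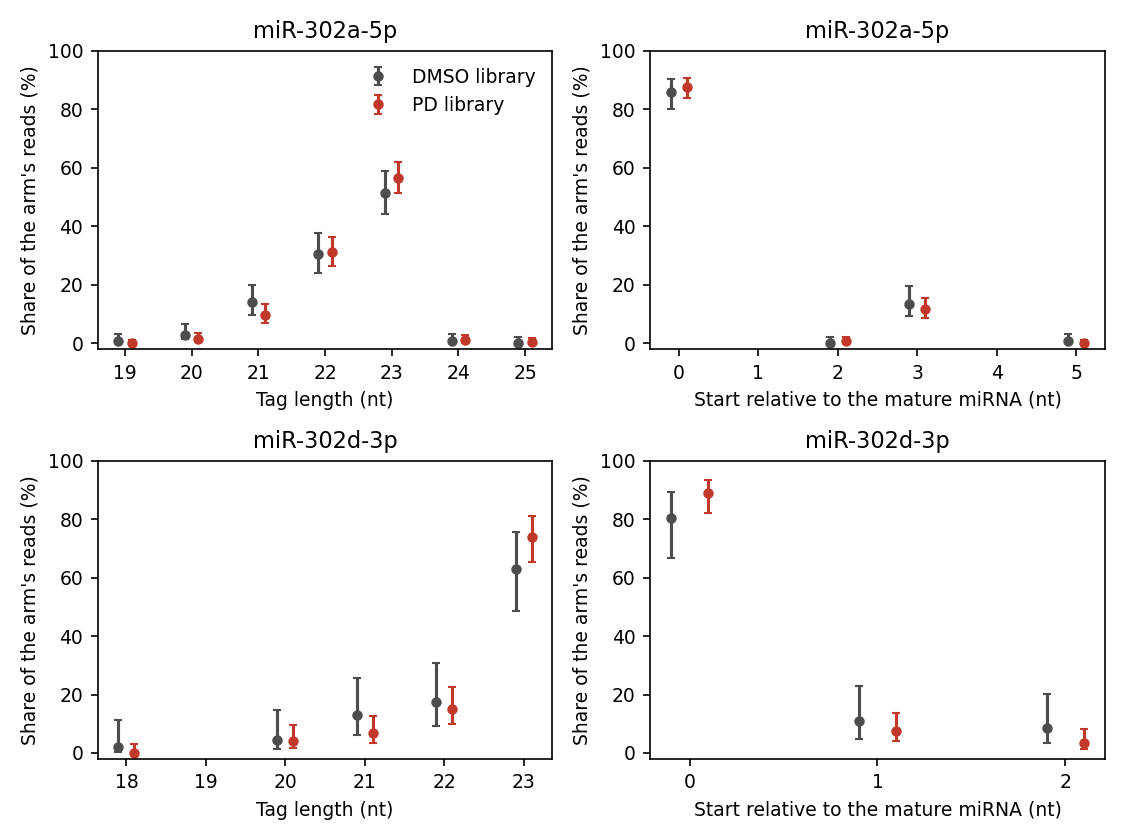
Share of the reads of miR-302a-5p (top) and miR-302d-3p (bottom) by tag length in nt (left) and by start relative to the mature miRNA in nt (right), in the DMSO library (grey) and the PD library (red), with Wilson 95% intervals. Tags of 23 nt lead in both arms, and the start 3 nt in is seen for miR-302a-5p at 13.5% and 11.7%.

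Most miRNA reads with the cluster's 3p seed came from other hairpins. The seed AAGUGCU is shared with these miRNAs of the miR-290-295 cluster, shown to compare the bases beyond it:
miR-294-3p: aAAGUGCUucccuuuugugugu
miR-291a-3p: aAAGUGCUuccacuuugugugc
miR-294-3p had 2896 RPM in the DMSO library and 2339 RPM in the PD library, a fold of 0.808 (0.798 to 0.817), and miR-291a-3p had 481 and 401 RPM, a fold of 0.834 (0.809 to 0.859). miR-302a-3p, miR-302b-3p and miR-302d-3p together were 99 of 63834 reads of miRNAs with this seed in the DMSO library (0.155%, Wilson 95% interval 0.127 to 0.189) and 192 of 57583 in the PD library (0.333%, 0.290 to 0.384). The 2 intervals did not overlap. The most frequent tag of miR-295-3p started 1 nt after its RefSeq sequence and so fell outside this seed. Sorting every tag by its own bases 2 to 8 instead gave 78 of 78736 reads (0.0991%) and 164 of 75089 (0.218%).

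For miR-367-3p the relatives were more abundant still. It had 1 of 139189 reads with the seed AUUGCAC in the DMSO library (0.000718%, 0.000127 to 0.00407) and 5 of 108284 in the PD library (0.00462%, 0.00197 to 0.0108). miR-25-3p (5232 and 3736 RPM), miR-92-3p (1696 and 1021 RPM) and miR-92b-3p (288 and 306 RPM) held most of the rest, miR-92-3p being the annotation's name for RefSeq's miR-92a-3p:
miR-25-3p: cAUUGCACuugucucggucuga
miR-92a-3p: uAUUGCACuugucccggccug
No miRNA with reads outside the cluster had the seeds of the 5p arms or of miR-302c-3p by its most frequent tag. The 171 and 334 reads of miR-302a-5p were thus all the reads of miRNAs with CUUAAAC by this tag. By each tag's own bases, 147 and 293 of these reads carried that seed.

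The relatives were counted from whole lists of hairpins, chosen with earlier results of these data known. Both arms of each hairpin were included, so that not every miRNA counted carries the shared seed. By their most frequent tag, 2 miRNAs outside the cluster had AAGUGCU and 5 had AUUGCAC. At an adjusted p under 0.05 alone, 46 of the 498 detected miRNAs were higher (9.24%) and 180 lower (36.1%). Of the 14 detected mature miRNAs of the miR-290-295 cluster, the exact binomial test called 2 higher and 9 lower (adjusted p under 0.05), and 0 of them by 1.5-fold. Their median log2 fold change was -0.08. In sum over both arms this cluster held 2193 times the RPM of the miR-302-367 cluster in the DMSO library and 1071 times in the PD library. Its most abundant miRNA, miR-293-3p at 11549 RPM in the DMSO library, has another seed than AAGUGCU. Of the 11 detected miRNAs of the Mir25, Mir32, Mir92-1, Mir92-2, Mir92b and Mir363 hairpins, 3 were higher and 7 lower in the same test, with a median of -0.19. By 1.5-fold, 2 were lower and 1 was higher, miR-32-3p, with 44 and 108 reads. The median over all 498 detected miRNAs was -0.17.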

How the data were processed

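The authors sequenced size-selected small RNA, filtered the reads on quality, adapters, contaminants and a length of at least 18 nt, and deposited the raw read count of every tag. Their notes name mm9, but coordinates here are from GENCODE M21 on GRCm38. Tags were matched perfectly to 1174 hairpins, and arms were divided by folding with ViennaRNA 2.7.2. A mature miRNA was the most frequent tag of an arm over both libraries, with tags that overlap it by at least 16 nt. Arms with an identical mature tag were counted once. This grouping was picked from 3 after their counts were seen, and so was the condition of 1.5-fold together with an adjusted p under 0.05. Neither changes a member's reads. Detected means at least 1 RPM in either library.

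Exact binomial and Fisher tests (SciPy 1.17.1, Python 3.11.15, two-sided) were adjusted by Benjamini-Hochberg over the whole table. edgeR 4.0.16 and DESeq2 1.42.0 in R 4.3.3 gave alternative normalizations, and edgeR an exact test with an assumed BCV. PCR reads are not independent molecules, so that intervals cover counting error only. At the depths of 18870345 and 20944808 reads, 1 read is 0.0530 and 0.0477 RPM. In simulated PD and DMSO libraries of 498 miRNAs, the binomial test called 79 of 104 miRNAs changed 2-fold under 10 RPM, and 2 of 144 unchanged ones. The simulated counts had Poisson error only, as the test assumes. They therefore do not show how often the test errs where libraries also differ by biological or PCR spread. The members and lists were chosen with earlier results of these data known. Named were all member arms, same-seed miRNAs by their 3 of most reads, the 3 nearest in fold change and marker lists. Mir292a of these lists is Mir292 in the annotation.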

Additional observations from a re-analysis of the deposited data

How the results depend on the processing

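Of 23 alternatives to the tags counted, the denominator, the depth, the filters, the thresholds and the test, 4 of them added after seeing the data, 21 called miR-302a-5p and 21 called miR-302d-3p higher in the PD library. The number of members called fell from 2 to 1 with a filter of 10 RPM, which miR-302d-3p did not reach, to 1 with a 2-fold threshold, where miR-302d-3p was called, and to 0 with an assumed BCV of 0.2, where 1 of the 498 miRNAs was called higher. miR-302d-5p was called in 4 settings. It passed the filter of 1 RPM only by its level in the PD library, so that these calls cannot show a rise. miR-302a-3p and miR-302b-3p were called in 0. The summed log2 fold change of 0.81 ranged from 0.80 to 1.09 over 14 alternatives, and reached 1.09 with clean reads of 20 to 24 nt as the denominator. With DESeq2 both size factors were 1, since 80 of the 897 miRNAs with reads in both libraries had equal counts and lay at the median, with 403 lower and 414 higher in the PD library. With hairpin arms not merged, 45 of 616 were called higher, against 18 of 498. By each tag's own bases 2 to 8, the members' share of the miR-302 seed was 0.0991% and 0.218%. Arm, start and length use gave 0 member calls under every alternative run, which were 3, 2 and 2. No paired analysis was possible because each treatment had 1 library and no replicate number. Depth left the 5 arms under 1 RPM with wide intervals.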

Other observations

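Tags that matched a member hairpin except for 1 to 3 added bases at the 3′ end were counted apart, and this was done with their counts known. No genome sequence was at hand, so that a match of such a tag elsewhere was not searched, and sequencing errors at the last base were not separated. The cluster had 18 such reads in the DMSO library beside 287 templated reads (5.90%, Wilson 95% interval 3.77 to 9.13) and 25 beside 560 in the PD library (4.27%, 2.91 to 6.23). Of the added single bases, T had 12 and 15 reads, A had 5 and 8, and C and G had 0.

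miR-302c-3p, rare among the templated reads, had 7 such reads beside 3 templated ones in the DMSO library (70.0%, 39.7 to 89.2) and 4 beside 4 in the PD library (50.0%, 21.5 to 78.5). Without it the share over the other arms was 3.73% (2.09 to 6.55) and 3.64% (2.39 to 5.50). Of its 7 and 4 reads, 7 and 3 were the whole 22 nt mature sequence with 1 added T, shown with the added base in capitals:
miR-302c-3p with T: aagtgcttccatgtttcagtggT
With these reads the counts of miR-302c-3p were 10 and 8, beside 9 and 27 for miR-302d-5p counted in the same way. miR-302c-5p, with 0 templated reads, had 2 reads with an added A in the DMSO library and 0 in the PD library.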
